A study of Mus musculus with 6 samples.

Results

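Ribosome-bound mRNA of 10 Wnt pathway genes was compared between Klf9 +/+ and Klf9 f/f mice, in a pull-down aimed at radial glia-like neural stem cells (RGLs) of the adult dentate gyrus. The genes were taken by name from a fixed list of Frizzled receptors (Fzd1, Fzd2, Fzd3), a co-receptor (Lrp6), secreted antagonists (Sfrp1, Frzb, Dkk3), the transducer beta-catenin (Ctnnb1) and a pair of genes that are both components and targets of the pathway (Axin2, Lef1). All 10 were found among the 37620 genes of the deposited count files, and all 10 passed the filter on low values described below. 3 samples came from mice labelled GliCreERT2 Klf9 +/+ Ribotag and 3 from mice labelled GliCreERT2 Klf9 f/f Ribotag. Mice of both genotypes carried a tamoxifen-inducible Cre driven from the Gli1 locus and the Rpl22HA f/+ RiboTag allele, were 2–3 months old, and received 3 tamoxifen injections 12 hr apart. For each sample the dentate gyri of 3 mice, 6 in number, were pooled 4 days after tamoxifen had ended. The genotypes thus differ in the floxed Klf9 allele, which loses exon 1 on recombination, while Cre, RiboTag and tamoxifen are common to both. By the study's account this Cre line recombines in RGLs and astrocytes, so the tagged ribosomes are not those of RGLs alone.

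In canonical Wnt signaling, a secreted Wnt ligand binds a Frizzled receptor together with Lrp5 or Lrp6. The destruction complex, built on Axin and Apc, is then held back, and beta-catenin accumulates and joins TCF/LEF factors on DNA. Secreted Frizzled-related proteins bind Wnt ligands outside the cell, whereas classical Dickkopf proteins block the co-receptor. In the adult dentate gyrus, Wnt ligands from astrocytes act on neural progenitors, and Frzb (also called Sfrp3) is known as a brake on adult neurogenesis.

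The sequences before the starts of Axin2 and Lef1 are shown because these genes serve as the transcriptional readout of the pathway and because Klf9 belongs to a family that binds GC-rich boxes. Promoter sequences from RefSeq (build GRCm38.p6) were matched for 5 of the 10 genes, namely Axin2, Lef1, Frzb, Fzd1 and Ctnnb1. Capitals mark 1 form of the TCF/LEF core, CTTTGA, and the GC box GGGCGG. Each was searched on both strands, so that the first appears as TCAAAG and the second as CCGCCC on the other strand. No motif here overlaps another. Each line holds the 250 bases before a start, 5′ to 3′ on the plus strand.
Axin2, chr11:108920099-108920348: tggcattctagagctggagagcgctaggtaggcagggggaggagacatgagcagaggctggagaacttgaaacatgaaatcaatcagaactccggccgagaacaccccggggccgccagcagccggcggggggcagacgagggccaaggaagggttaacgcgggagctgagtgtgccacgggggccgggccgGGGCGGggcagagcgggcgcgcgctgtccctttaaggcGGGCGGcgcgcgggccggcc
Lef1, first start, chr3:131110047-131110296: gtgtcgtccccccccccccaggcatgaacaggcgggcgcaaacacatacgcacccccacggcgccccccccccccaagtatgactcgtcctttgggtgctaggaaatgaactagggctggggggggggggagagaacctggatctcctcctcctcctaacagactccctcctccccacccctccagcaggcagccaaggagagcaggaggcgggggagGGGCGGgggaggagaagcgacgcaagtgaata
Lef1, the fourth start, chr3:131156044-131156293: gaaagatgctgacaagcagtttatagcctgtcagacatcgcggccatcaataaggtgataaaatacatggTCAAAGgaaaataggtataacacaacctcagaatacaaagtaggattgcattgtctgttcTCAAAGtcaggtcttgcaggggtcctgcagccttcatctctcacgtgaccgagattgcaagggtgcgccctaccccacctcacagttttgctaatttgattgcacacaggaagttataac
The Axin2 window held 2 GC boxes, at 58 and 20 bases before the start, and 0 TCF/LEF cores. The window of the first Lef1 start held 1 GC box, whereas that of the fourth start of Lef1, inside the gene, held 2 TCF/LEF cores and 0 GC boxes. Frzb had 1 match to each motif, Fzd1 had 1 TCF/LEF core, and the overlapping windows of the pair of Ctnnb1 starts held 3 GC boxes between them, of which 2 lay in both windows. Of 32851 such windows in the table, 13.8% held the TCF/LEF core and 32.7% the GC box. Other forms of the TCF/LEF core were not searched, so its counts, those of 0 included, and the 13.8% cover CTTTGA alone. A match is a run of letters in this window and not a measured site.

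Between 21594714 and 66343759 reads per sample fell on genes. The library names give a YTa22 series, with replicates 1 and 2 of each genotype, and a YTa32 series, with replicate 3 of each. Library series entered the fit as a term, and values are in CPM (counts scaled to library size) after TMM normalization unless a length is named. Klf9 itself measured 200.7, 203.7 and 138.9 CPM in the Klf9 +/+ samples, against 114.1, 121.2 and 119.9 CPM in Klf9 f/f, lower in every Klf9 f/f sample, with p = 0.1 in a two-sided exact permutation test, as low as 3 against 3 can reach. Klf9 mRNA in Klf9 f/f was thus reduced and not absent, at a fitted 0.66-fold level, with a log2 difference of -0.78 in YTa22 and -0.21 in YTa32. In edgeR's quasi-likelihood test the unadjusted p was 0.00319, and 0.844 after Benjamini-Hochberg adjustment over all genes. The count covers the whole gene while recombination removes exon 1, so it does not measure intact Klf9 mRNA alone. The samples are pools of separate mice, but whether the libraries were prepared independently is not stated, so p-values measure the spread between these samples. In bulk samples, fewer cells of a type and less RNA per cell cannot be told apart.

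For none of the 10 genes did the difference between genotypes pass the test. A gene was called at a change of at least 1.2-fold with an unadjusted p under 0.05, after the study's methods. By this rule 4.32% of the 15056 genes tested were called (1.82% up and 2.5% down in Klf9 f/f), and of the 10 Wnt genes 0 were called up and 0 down. The count of the 10 with an unadjusted p under 0.05 was 0 by edgeR's quasi-likelihood test, and 0 were called by edgeR's likelihood-ratio test and by DESeq2. After Benjamini-Hochberg adjustment of the edgeR p-values over all genes, each of the 10 had an adjusted p of 1.00, and 0 genes of the whole table had one under 0.05. Over the whole table, 58 genes had an adjusted p under 0.05 by the likelihood-ratio test, 39 by DESeq2 and 334 with no filter beyond 1 count, and in none of these settings was any of the 10 called. In 0 of the 10 did all 3 Klf9 f/f samples lie above all 3 Klf9 +/+ samples, or below them, an arrangement found for 2.03% and 1.35% of all genes tested. The log2 fold changes, Klf9 f/f over Klf9 +/+, ran from -0.33 for Axin2 to 0.23 for Dkk3. Of the 10, 6 were positive, beside 7553 of all 15056 genes tested. For 6 of the 10 the change was smaller than its own standard error. Over all genes tested, the median size of the change was 0.12 and the median standard error was 0.17. The median log2 fold change of the 10 was 0.08, beside 0.00084 over all genes tested.

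**Figure D1:**
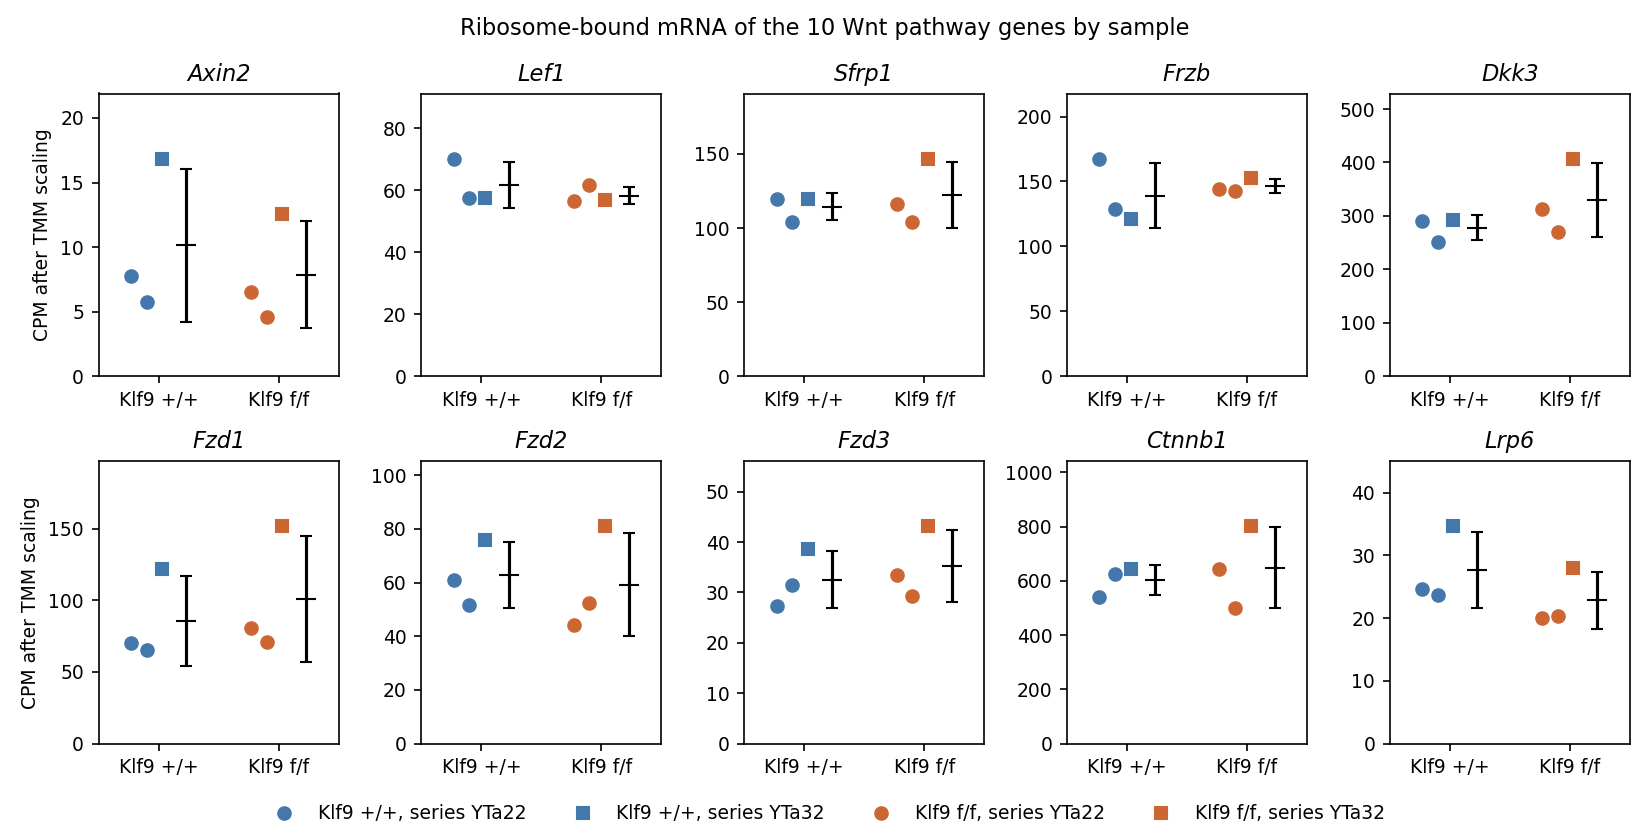
Level of each of the 10 genes in CPM after TMM scaling (vertical axes start at 0) in the 3 Klf9 +/+ and 3 Klf9 f/f samples. Circles are library series YTa22, squares are YTa32, and the bar beside each group is the mean with its SD (n = 3). The genotypes overlap in all 10 panels. The squares lie above the circles of the same colour for Axin2, Fzd1, Fzd2, Fzd3, Dkk3, Ctnnb1 and Lrp6.

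The Frizzled receptors were measured at middle to high levels and spanned 0 on the log2 scale. Fzd1, a receptor for canonical Wnt ligands encoded by 1 exon (ENSMUSG00000044674, at 4753842 to 4758216 of mm9 chromosome 5), measured 69.9, 65.2 and 121.6 CPM in the Klf9 +/+ samples, against 80.6, 71.0 and 151.6 CPM in Klf9 f/f. Within each series every Klf9 f/f sample lay above the Klf9 +/+ samples, as was the case for 7.78% of all genes tested, but across series the groups overlapped. On the log2 scale Fzd1 had an estimate of 0.22 ± 0.13 (SE), with a 95% interval of -0.07 to 0.50, so the call rule was not met. Fzd2, its single-exon relative (ENSMUSG00000050288, chromosome 11, 102465745 to 102469372), measured 61.1, 51.5 and 75.7 CPM in the Klf9 +/+ samples, against 44.3, 52.5 and 81.0 CPM in Klf9 f/f. The order of the genotypes turned between series, with a difference of -0.22 in YTa22 and 0.10 in YTa32 on the log2 scale. Fzd3, a receptor best known for planar polarity and axon guidance (ENSMUSG00000007989, chromosome 14, 65819863 to 65881300), measured 27.4, 31.6 and 38.5 CPM in the Klf9 +/+ samples, against 33.5, 29.3 and 43.2 CPM in Klf9 f/f. Here Klf9 f/f replicate 2 lay between the Klf9 +/+ samples of its series. For Fzd2 and Fzd3 the fit gave log2 fold changes of -0.11 ± 0.14 and 0.11 ± 0.14 (SE).

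Taken per kb of merged exon length, which allows levels of different genes to be compared, Fzd1, Fzd2 and Fzd3 made up 65.5% to 71.6% of the summed level of all 10 Frizzled genes in the 6 samples. The share was 69.2% ± 1.23 in Klf9 +/+ against 69.4% ± 3.38 in Klf9 f/f (SD, n = 3 each). Fzd1 alone held 29.9% ± 2.71 in Klf9 +/+ against 32.9% ± 3.23 in Klf9 f/f (SD, n = 3 each), and Fzd2 held 27.2% ± 2.31 and 23.9% ± 3.42 (SD, n = 3 each). Over 10 such shares of family totals that were compared between genotypes, the smallest p was 0.3 (exact permutation test, two-sided) and its Benjamini-Hochberg adjusted value was 1.00, where 3 against 3 cannot go below 0.1. This test ignores library series. Within each series the Fzd1 share was higher in every Klf9 f/f sample, at 31.3% and 30.9% against 27.9% and 28.8% in YTa22 and at 36.7% against 32.96% in YTa32, and the groups overlapped across series. Of the 10 shares compared, only that of Fzd1 kept such an order in both series. It was singled out for this order, which was not tested, and how often such an order arises was not counted.

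Lrp6, the co-receptor that passes the signal to Axin (ENSMUSG00000030201, chromosome 6, 134396494 to 134516983, minus strand), came closest to the call rule. It measured 24.7, 23.7 and 34.6 CPM in the Klf9 +/+ samples, against 20.1, 20.4 and 28.0 CPM in Klf9 f/f. In YTa22 both Klf9 f/f samples lay below both Klf9 +/+ samples, and in YTa32 the Klf9 f/f sample lay below its counterpart, an order that 5.53% of all genes tested shared. The difference was -0.26 in YTa22 and -0.30 in YTa32. The fit gave -0.27 ± 0.13 (SE) on the log2 scale, a 0.83-fold level with a 95% interval of 0.67 to 1.01. The unadjusted p of Lrp6 was 0.0638 in edgeR's model, the adjusted p was 1.00, and a two-sided exact permutation test that ignores library series gave p = 0.3. Lrp6 held 59.3% to 89.6% of the joint per-kb level of Lrp5 and Lrp6, with 65.1% and 59.3% in the YTa32 samples and 78.4% or more in the YTa22 samples.

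The secreted antagonists were among the most abundant of the 10 mRNAs. Dkk3, a divergent Dickkopf family member whose place in Wnt signaling is less settled (ENSMUSG00000030772, chromosome 7, 119259533 to 119302571), measured 289.9, 250.4 and 293.0 CPM in the Klf9 +/+ samples, against 312.6, 270.5 and 407.0 CPM in Klf9 f/f. The Klf9 f/f sample of YTa32 was the highest of the 6, while replicate 2 of Klf9 f/f lay below replicate 1 of Klf9 +/+. The estimate was 0.23 ± 0.15 (SE) on the log2 scale, and its 95% interval of -0.10 to 0.56 admits changes from 0.93-fold to 1.48-fold. Dkk3 made up 99.77% to 99.99% of the per-kb level of the 4 Dickkopf genes in each sample, since Dkk1 and Dkk4 had 0 counts in all 6 samples and Dkk2 stayed under 1 CPM. A count of 0 allows a level of up to 0.0452 to 0.139 CPM at these depths (3 counts, counting error only).

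Frzb, a secreted Frizzled-related protein (ENSMUSG00000027004, chromosome 2, 80252127 to 80287782), measured 167.5, 128.9 and 120.9 CPM in the Klf9 +/+ samples, against 144.4, 142.9 and 152.8 CPM in Klf9 f/f. The Klf9 f/f samples lay inside the range of the Klf9 +/+ samples. Its log2 fold change, 0.08 ± 0.15 (SE), had a 95% interval of -0.26 to 0.42. Sfrp1, a protein of the same family (ENSMUSG00000031548, chromosome 8, 24521974 to 24560104), measured 119.9, 104.2 and 119.4 CPM in the Klf9 +/+ samples, against 116.5, 103.9 and 146.8 CPM in Klf9 f/f. Its groups overlapped in the YTa22 series, and the fit gave 0.08 ± 0.14 (SE) on the log2 scale. Both genes were near 0 in YTa22, at -0.03 for Frzb and -0.02 for Sfrp1, and positive in YTa32, at 0.34 and 0.30, where each genotype has 1 sample. Frzb held 53.4% to 63.7% and Sfrp1 33.8% to 40.4% of the per-kb level of the 5 secreted Frizzled-related genes, ahead of Sfrp2, Sfrp4 and Sfrp5.

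Ctnnb1, which encodes beta-catenin and serves both cell adhesion and transcription (ENSMUSG00000006932, chromosome 9, 120838334 to 120869625), measured 539.6, 624.5 and 643.6 CPM in the Klf9 +/+ samples, against 644.6, 501.4 and 801.5 CPM in Klf9 f/f. The Klf9 f/f group held both the lowest and the highest sample. With a log2 fold change of 0.09 ± 0.16 (SE), the 95% interval ran from -0.27 to 0.45. Exons of Ctnnb1 share 240 bp with Ulk4 on the other strand, and those of Axin2 share 209 bp with Gm11670, where counting without strand cannot place reads. Canonical signaling acts on the stability of the beta-catenin protein, which mRNA counts do not measure.

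Axin2 and Lef1, the genes of the list whose transcription the pathway itself raises, did not pass the test. Axin2, a scaffold of the destruction complex (ENSMUSG00000000142, chromosome 11, 108781663 to 108812097), measured 7.76, 5.77 and 16.8 CPM in the Klf9 +/+ samples, against 6.49, 4.58 and 12.5 CPM in Klf9 f/f. These levels rest on 228 to 516 counts per sample. Within YTa22, Klf9 f/f replicate 1 lay between the Klf9 +/+ samples. The log2 fold change, -0.33 ± 0.22 (SE), was the widest in error of the 10, and the 95% interval admits levels from 0.57-fold to 1.11-fold. Without Klf9 f/f replicate 1 it was -0.50 and met the call rule (adjusted p = 0.878, edgeR, the lowest of 13 alternatives that reached up to 1.00). Lef1, a DNA-binding partner of beta-catenin (ENSMUSG00000027985, chromosome 3, 130813389 to 130927274), measured 70.2, 57.5 and 57.5 CPM in the Klf9 +/+ samples, against 56.5, 61.6 and 56.9 CPM in Klf9 f/f. Apart from Klf9 +/+ replicate 1, the samples were alike, from 56.5 to 61.6 CPM. The estimate for Lef1 was -0.08 ± 0.13 (SE) on the log2 scale, and its 95% interval ran from 0.77-fold to 1.17-fold. Per kb, Lef1 held 23.8% to 34.2% of the summed level of Lef1, Tcf7, Tcf7l1 and Tcf7l2, and Axin2 held 4.81% to 13.8% of that of Axin1 and Axin2. These shares depend on the merged exon length. With the longest transcript the mean Lef1 level was 16.4 in place of 6.94 CPM per kb, and shares were not computed with that length.

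**Figure D2:**
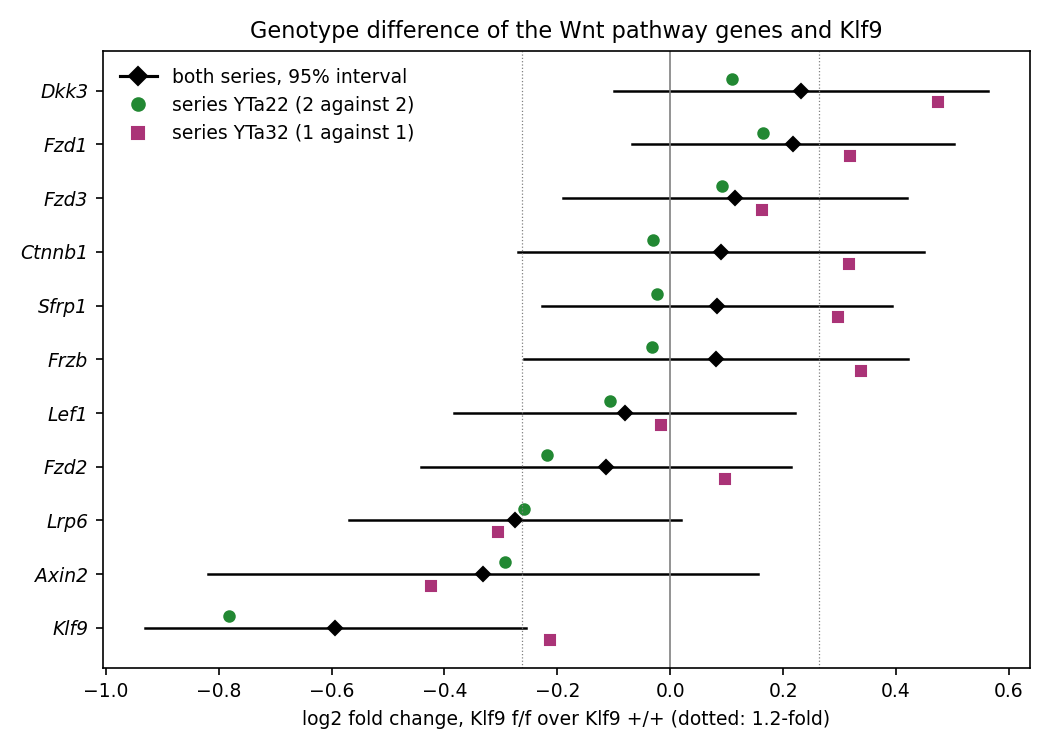
Log2 fold change of Klf9 f/f over Klf9 +/+ (horizontal axis) for the 10 genes and Klf9. Black diamonds are the fit over both series with its 95% interval, green circles the difference in YTa22 and purple squares that in YTa32. The intervals of all 10 Wnt genes include 0, whereas that of Klf9 runs from -0.93 to -0.26 (adjusted p = 0.844, edgeR).

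Read by series, 3 of the 10 genes were higher in Klf9 f/f in YTa22 and 7 of the 10 in YTa32, against 49.2% and 53.9% of all genes tested. The median difference of the 10 was -0.03 in YTa22 and 0.23 in YTa32. The sign was the same in both series for 6 of the 10 (Axin2, Lef1, Lrp6, Dkk3, Fzd1 and Fzd3), against 55.4% of all genes. A term for the difference between the series' genotype effects was fitted, with the residual spread coming from YTa22 alone, and its smallest unadjusted p over the 10 genes was 0.313, for Frzb. At an unadjusted p under 0.05 it picked 0 of the 10 and 1.53% of all genes.

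For all 10 genes the estimated difference between library series was larger in size than that between genotypes. The sizes were close for Lef1 (-0.10 for series and -0.08 for genotype) and Frzb (-0.10 and 0.08). Levels were higher in YTa32 than in YTa22 for 8 of the 10. Neither count was made over all genes tested, so neither can be called particular to these genes. The log2 difference was 1.25 for Axin2 (standard error 0.22, adjusted p = 0.00592), 0.92 for Fzd1 (0.13, adjusted p = 0.00411), 0.59 for Fzd2 (0.15, adjusted p = 0.0198) and 0.49 for Lrp6 (0.14, adjusted p = 0.0259), all from edgeR's test over all genes. These 4 passed an adjusted p under 0.05, as did 29.5% of all genes tested. Lef1 and Frzb lay slightly lower in YTa32, at -0.10 and -0.10, with standard errors of 0.14 and 0.16. The series also differed in depth and in the share of reads left out as ambiguous, 2.42% to 2.64% in YTa22 and 1.35% to 1.38% in YTa32, and the part of either in these differences was not tested.

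Ordered by mean CPM per kb of merged exon length over the 6 samples, the 10 genes spanned a wide range. Ctnnb1 was the highest at 122.7 ± 20.5 (SD, n = 6), followed by Dkk3 at 90.5 ± 16.3, Frzb at 44.1 ± 5.15 and Sfrp1 at 27.1 ± 3.58. The Frizzled genes came next, with Fzd1 at 21.3 ± 8.05, Fzd2 at 16.8 ± 4.01 and Fzd3 at 8.02 ± 1.40. Lef1 stood at 6.94 ± 0.61, Lrp6 at 2.57 ± 0.56 and Axin2 at 1.63 ± 0.86. Ctnnb1 thus lay above 96.4% of all genes tested and Axin2 above 23%. The ranges of neighbours did not overlap between Dkk3 and Frzb, Frzb and Sfrp1, Fzd2 and Fzd3, or Lef1 and Lrp6. Ctnnb1 lay above Dkk3, and Lrp6 above Axin2, in 6 of 6 samples although their ranges overlapped. Sfrp1 lay above Fzd1 in 4 of 6 samples, Fzd1 above Fzd2 in 5 of 6, and Fzd3 above Lef1 in 4 of 6, and these neighbours were not told apart. Which length suits the ribosome-bound isoforms was not measured. With the longest transcript in place of the merged exons, Lef1 moved above Fzd3, at 16.4 against 8.16 CPM per kb, and the other places in the order stayed.

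**Figure D3:**
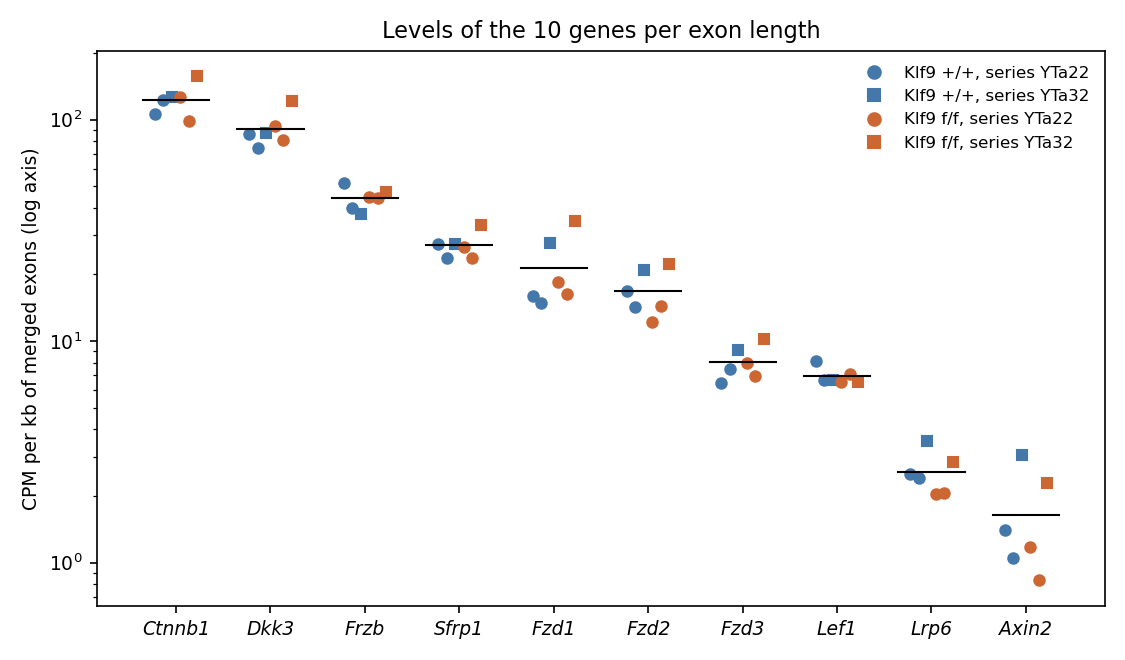
CPM per kb of merged exons (log axis) of the 10 genes, ordered by mean, in each sample. Blue marks Klf9 +/+, orange Klf9 f/f, circles YTa22, squares YTa32, and the line is the mean of 6 samples. The means run from 122.7 for Ctnnb1 to 1.63 for Axin2.

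The rest of the pathway was covered by a list of 101 genes sorted by role, the 10 genes included, of which 84 passed the filter. Of these 84, 2 were called up and 2 down, 4.76% against 4.32% of all genes tested, and their median log2 fold change was -0.0037, with 42 positive and 42 negative. Leaving out 1 sample moved these counts, to 7 up without Klf9 +/+ replicate 1, to 1 up without Klf9 +/+ replicate 3, Klf9 f/f replicate 1 or Klf9 f/f replicate 3, to 5 down without Klf9 +/+ replicate 2 and to 7 down without Klf9 f/f replicate 1. By role, 0 of the 7 tested R-spondin axis genes, 0 of the 17 cytoplasmic transducers, 0 of the 14 nuclear effectors and 0 of the 13 target genes were called. The target genes had a median of -0.11, with 5 positive and 8 negative. The most abundant of them per kb, Tnfrsf19, Apcdd1 and Ccnd1, had log2 fold changes of 0.30, -0.26 and 0.22, with standard errors of 0.18, 0.17 and 0.27.

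Of the genes called, Wnt7b, the ligand with the highest per-kb level, was higher in Klf9 f/f. It measured 96.6, 89.4 and 168.5 CPM in the Klf9 +/+ samples, against 134.9, 126.5 and 207.3 CPM in Klf9 f/f. Within both series it lay above its Klf9 +/+ counterparts, as did 7.78% of all genes tested, but across series the groups overlapped. On the log2 scale the difference was 0.43 ± 0.12 (SE, adjusted p = 0.959 from edgeR), with 0.49 in YTa22 and 0.30 in YTa32. A two-sided exact permutation test that ignores library series gave p = 0.3. Without the series term, the SE was 0.31 and Wnt7b was not called. Among the other 13 tested genes of ligands and their secretion, 0 were called, and the median of the 14 was -0.25. Porcn and Wls, needed to acylate and export Wnt proteins, were at 0.04 and -0.24, with standard errors of 0.14 and 0.29. Fzd7, a receptor at a lower level, fell by 0.42 on the log2 scale (SE 0.18, adjusted p = 1.00, edgeR), from 6.83, 8.17 and 16.5 CPM to 5.75, 5.67 and 11.8 CPM. This call was lost with any sample left out other than Klf9 +/+ replicate 1. Ryk, the receptor gene with the highest per-kb level, was at -0.06 with a standard error of 0.14.

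The inhibitor genes that were called moved in opposite directions. Sostdc1, a secreted antagonist of BMP and Wnt signals, fell by 2.75 on the log2 scale (SE 0.42, adjusted p = 0.208, edgeR), from 2.91, 10.7 and 53.7 CPM to 0.93, 1.21 and 7.34 CPM. It was called in all 13 alternatives, with an adjusted p of 6.28e-07 by the likelihood-ratio test, 3.52e-08 by DESeq2 and, over all 13, from 1.41e-28 with no filter beyond 1 count to 1.00 without the series term. Some of these 13 nearly repeat each other, as described below. Without Klf9 +/+ replicate 2 the change was -2.13. Sostdc1 is itself 1 of the 12 genes of the choroid plexus list, all of which were called down, beside 2.5% of all genes tested. Their summed levels were 250.25, 985 and 4114 CPM in Klf9 +/+, against 181, 102 and 767 CPM in Klf9 f/f. The sums were lower in Klf9 f/f within each series and overlapped across series. Of the 12 genes, 6 lay below Klf9 +/+ within both series, as did 5.53% of all genes tested. The part of choroid plexus RNA in the Sostdc1 result was not tested. Cer1, a secreted antagonist of early development, rose by 0.94 on the log2 scale (SE 0.37, adjusted p = 1.00, edgeR) and rested on 17 to 231 counts per sample. It was not called without Klf9 +/+ replicate 2 or 3, or without Klf9 f/f replicate 1 or 3.

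**Figure D4:**
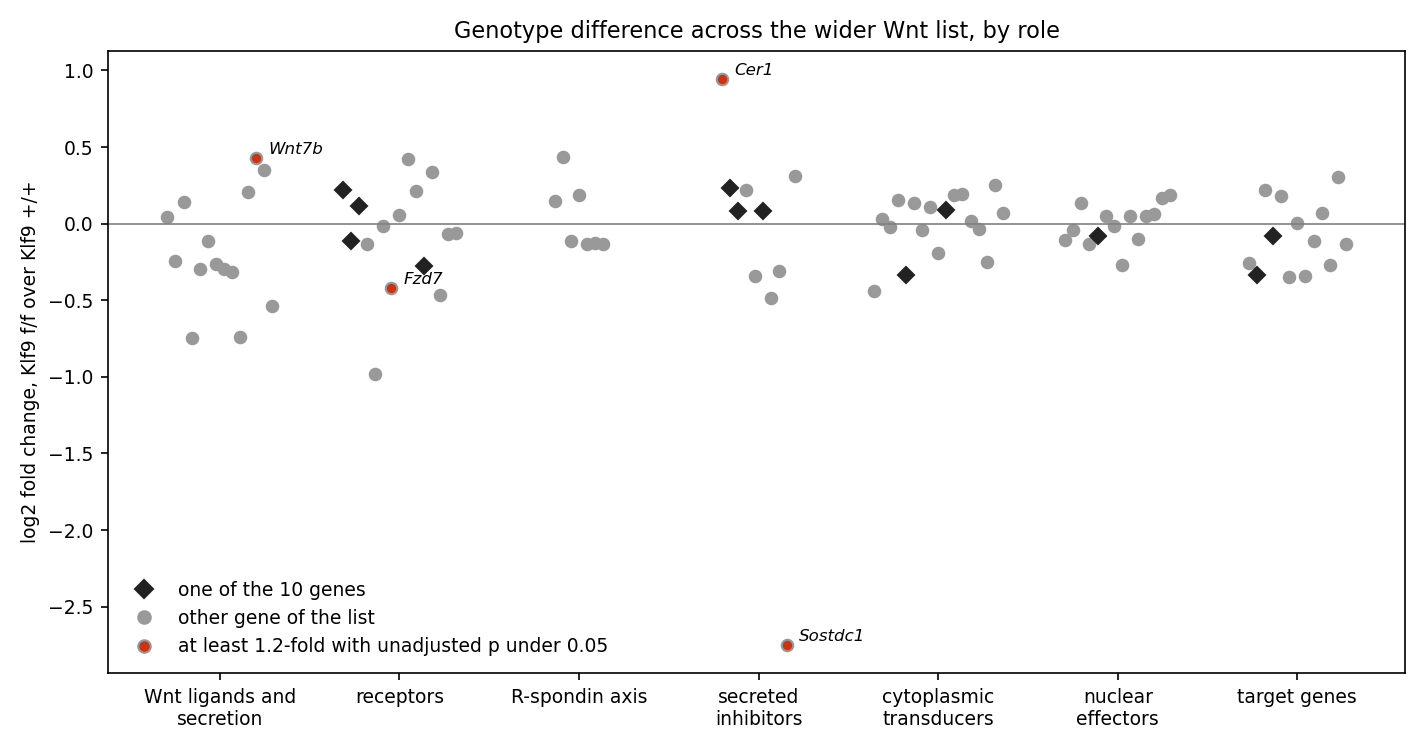
Log2 fold change of Klf9 f/f over Klf9 +/+ (vertical axis) for the 84 tested genes of the wider list, by role. A gene with more than one role is drawn under each, black diamonds are the 10 genes, grey circles the other genes, and red filling marks the calls. The 10 genes lie between -0.33 and 0.23, and the 4 named calls are Wnt7b, Cer1, Fzd7 and Sostdc1.

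Several marker lists of other cells had a larger share of calls than the 1.82% up and 2.5% down over all genes tested, while 0 markers had an adjusted p under 0.05 in the edgeR fit. The 12 endothelial markers, Ly6c1 and Slco1a4 the highest, had a summed level of 170.3 to 420.4 CPM in Klf9 +/+ and 69.7 to 274 CPM in Klf9 f/f, and 4 of the 12 were called down. Within each series Axin2 put the samples in the same order as the mean of these markers, and also as that of the 10 mural markers. The 13 astrocyte markers, Aldoc and Slc1a3 the highest, summed to 11885 to 16066 CPM in Klf9 +/+ and 15370 to 17731 CPM in Klf9 f/f, with 4 of 13 called up. Dkk3 put the samples of each series in the same order as the mean of the astrocyte markers. Of 100 pairs of a Wnt gene and a marker list, 5 shared the order, and these pairs were picked after the values were seen. The remaining pairs were Frzb with the 11 radial glia markers and Lrp6 with the 7 ependymal markers. How many of all genes tested keep the order of a list was not counted. The matches can therefore not be called particular to these Wnt genes. Of the mural markers 3 of 10 were called down, and of the ependymal markers 3 of 7. The radial glia list had 2 of 11 called up, the oligodendrocyte list 2 of 10 up, the meningeal list 3 of 12 down, and the microglia and granule neuron lists 0 of 9 and 0 of 11. No marker of these lists was at 0 in all samples. The part of RNA from any of these cells in the values of Axin2, Dkk3, Frzb and Lrp6 was not tested. The radial glia markers, Gfap and Hopx the highest, stood at a mean of 7.39 ± 0.19 and 7.56 ± 0.11 log2 CPM (SD, n = 3 each), and the 11 granule neuron markers at 6.85 ± 0.09 and 6.85 ± 0.13 log2 CPM, so that mRNAs of neuronal markers were present as well.

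**Figure D5:**
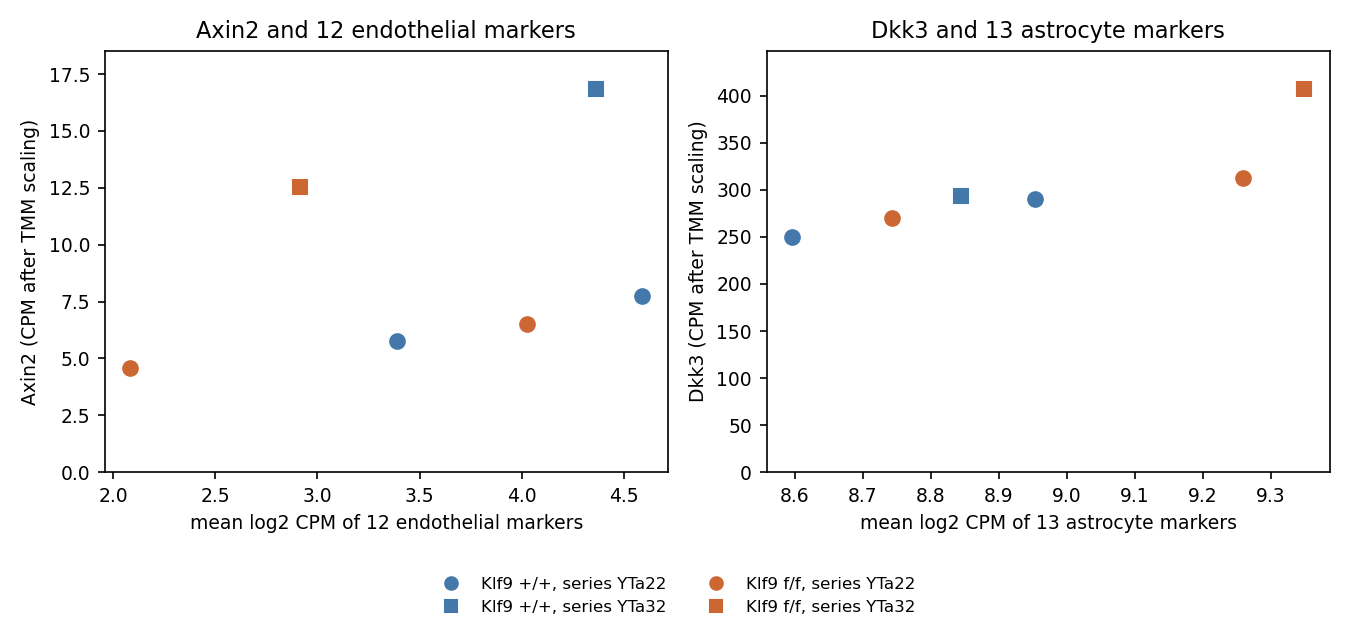
Left, Axin2 in CPM against the mean log2 CPM of 12 endothelial markers. Right, Dkk3 in CPM against the mean log2 CPM of 13 astrocyte markers. Each point is 1 sample, with blue for Klf9 +/+, orange for Klf9 f/f, circles for YTa22 and squares for YTa32. In each panel the circles and the squares each keep 1 order on both axes, while the YTa32 squares of Axin2 lie at 12.5 and 16.8 CPM, above all circles. Both pairs were picked after the values were seen.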

How the data were processed

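Ribosome-bound mRNA was isolated by anti-HA immunoprecipitation from pooled dentate gyri, and SMARTer v4 libraries were sequenced with 50 bp reads. The authors aligned them to mm9 with STAR, obtained unstranded read counts per gene from HTSeq, and deposited these counts as whole numbers that had not been normalized. The 5 HTSeq summary lines, 10.9% to 12.2% of reads without a feature in YTa32 and 6.33% to 7.66% in YTa22 among them, were left out of library sizes and tests. Of 37620 genes, 37205 were named from GENCODE M1, which is on the same build, and Amer1 and Pifo were found under older symbols.

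Samples were grouped by labelled genotype, and replicate numbers are running numbers that pair no samples. Library series was read from the titles. The 15056 genes that exceeded 1 CPM in 1 or more samples were scaled by TMM, and genotype and library series were fitted by the quasi-likelihood method of edgeR 4.0.16 (R 4.3.3). A standard error is the log2 fold change over the square root of F, and 95% intervals use the t distribution. Log2 CPM used a prior count of 2. Differences within a series, group overlaps and exact tests of single genes used these values. The exact tests of family shares used the shares in percent. Merged exon lengths gave CPM per kb. The 10 genes, the wider Wnt lists and the marker lists were chosen with earlier results of these data known.

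Named are the 10 genes, Klf9, genes of the wider list past the call rule, up to 3 genes per role and 2 per marker list of the highest level, and the genes most like any of the 10 that was called, of which there were 0. Sfrp2, Sfrp4, Sfrp5, Lrp5, Axin1, Tcf7, Tcf7l1, Tcf7l2 and the Dickkopf genes are named as members of a family total. As alternatives, the series term was dropped, DESeq2 1.42.0 or the likelihood-ratio test replaced the main test, normalization was by upper quartile, the filter was changed, and single samples or a whole series were left out. The scripts were tested on simulated data. No set test was run. Figures were drawn with matplotlib 3.10.9.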

Additional observations from a re-analysis of the deposited data

How the results depend on the processing

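The count of the 10 genes called was 0 up in all 13 alternatives with a test and 0 down in 12 of them. Not all of the 13 are separate checks. Without replicate 3 of either genotype, the series term takes up the YTa32 sample that remains, and the fit nearly repeats YTa22 alone. Leaving out each sample in turn gave 0 to 1 down, the 1 being Axin2 without Klf9 f/f replicate 1. With each sample left out, the wider Wnt list gave 1 to 7 genes up and 2 to 7 down: 7 up without Klf9 +/+ replicate 1, 7 down without Klf9 f/f replicate 1, 5 down without Klf9 +/+ replicate 2, and 1 up without replicate 3 of either genotype or without Klf9 f/f replicate 1. Without the series term it gave 0 up and 1 down, with the likelihood-ratio test 1 down, with no filter beyond 1 count 4 up and 4 down, and in YTa22 alone 1 up and 1 down. The cause of these moves was not tested. Over all genes tested, the calls at 1.2-fold ran from 50 up without the series term to 926 down with no filter beyond 1 count, against 274 up and 376 down.

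The sign turned for 5 of the 10 genes in at least 1 setting, all with changes smaller than their standard errors. Fzd2 was at 0.10 in YTa32 alone, a value with no test. With single samples left out, Lef1 ran from -0.15 to 0.016, Sfrp1 from -0.029 to 0.17, Frzb from -0.051 to 0.23 and Ctnnb1 from -0.028 to 0.22. The turn came without Klf9 +/+ replicate 1 for Lef1, and for the other three without replicate 3 of either genotype. In YTa22 alone, which the fits without replicate 3 nearly repeat, Sfrp1, Frzb and Ctnnb1 were at -0.029, -0.051 and -0.026. Lrp6 stayed between -0.30 and -0.26 over the 13 alternatives, Fzd1 between 0.16 and 0.28, and Dkk3 between 0.10 and 0.33, with 0 calls each. Wnt7b was called in 12 of 13, Sostdc1 in 13, Cer1 in 7 and Fzd7 in 4. The fits without replicate 3 of either genotype and of YTa22 alone count separately in these totals, though they nearly repeat each other. With 1 sample of each genotype in YTa32, no spread can be had within that series. Changes inside the 95% interval of a gene, from the fit over both series, remain compatible with these data. No paired analysis was possible because the labels give no replicate numbers. Those used here were assigned in accession order within a genotype and tie no sample to another.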

Other observations

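The receptors Ror1, Ror2 and Ptk7 and the ligand Wnt5a, known for roles in Wnt signaling that does not run through beta-catenin, were measured too. Of the following genes 0 were called. Wnt5a measured 46.4, 44.5 and 54.8 CPM in the Klf9 +/+ samples, against 40.2, 26.3 and 55.3 CPM in Klf9 f/f (log2 fold change -0.30, SE 0.18). Ror1 and Ror2 stayed under 8 CPM in all samples. Ptk7, a planar polarity receptor, came to 0.34 ± 0.17 (SE) on the log2 scale (adjusted p = 1.00, edgeR) and stood at 37.4 and 49.2 CPM in the YTa32 samples, against 12.7 to 20.7 CPM in YTa22. Of the ligands, Wnt8a had 0 counts in all 6 samples, and Wnt1, Wnt3a and Wnt10b stayed under 0.2 CPM. These genes were chosen after their values were seen.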
